A study of Rattus norvegicus with 8 samples.

Results

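The miR-17 seed family of the rat was followed in pancreatic islets of adult and 10-day-old animals. Its members were taken as every product of the hairpins miR-17, miR-20a, miR-20b, miR-93 and miR-106b on the array, 11 of 677 miRNAs. Of the 11, 5 are the major arms that carry the family seed (rno-miR-17-5p, rno-miR-20a, rno-miR-20b-5p, rno-miR-93 and rno-miR-106b, written below without the species prefix) and 6 are the opposite arms of the same hairpins, which have other seeds. The 5 major arms were well above background, by the scanner software's call, on enough arrays to be tested, among 238 tested miRNAs in all. MicroRNAs in total RNA were measured on 1-colour Agilent arrays, and the question, by the series title, concerns the maturation of beta cells. The adult group held 4 arrays of islets from control male Sprague Dawley rats 3 months old. The P10 group held 4 arrays of islets from control Sprague Dawley rats 10 days old, whose sex the labels do not give. Arrays of an age are labelled as biological replicates, but the number of animals behind each is not stated, and p-values measure only the spread between these samples.

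MicroRNAs are short RNAs that guide Argonaute proteins to messenger RNAs, and bases 2 to 8 of a miRNA, its seed, do most of the pairing with a target. The miR-17 family is encoded in 3 paralogous clusters, miR-17~92, its X-linked paralogue and miR-106b~25, and is known from mouse and human work for promoting cell cycle entry and for repressing the cell cycle inhibitor p21 and the proapoptotic protein BIM. Islets are the endocrine clusters of the pancreas, and beta cells, their main cell type, are known to divide more in newborn than in adult rodents.

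The mature sequences are shown because the members share a seed and differ only elsewhere, which bears on what an array probe can tell apart. They are those of RefSeq, build GRCr8, written 5′ to 3′ with the seed in capitals.
miR-17-5p: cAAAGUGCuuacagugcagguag
miR-20a: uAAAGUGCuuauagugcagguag
miR-20b-5p: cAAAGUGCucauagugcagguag
miR-93: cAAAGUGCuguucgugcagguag
miR-106b: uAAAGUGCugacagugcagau

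All 5 members held the same 7 seed letters. Among 724 mature entries of the RefSeq table these letters stood at the seed position in 5 mature sequences from 6 hairpins, which were the 5 members. Counted from base 1 at the 5′ end, miR-20a differed from miR-17-5p by C1U and C12U, and miR-20b-5p by U10C and C12U. miR-20a and miR-20b-5p differed from each other by U1C and U10C. miR-93 differed from miR-17-5p at 4 bases, U10G, A11U, C12U and A13C. miR-106b, which is 2 bases shorter, differed from it at 3 of the 21 shared positions, C1U, U10G and G20A. The probes' sequences are not in the files used here, so how much of a probe's signal came from another member was not tested. Of 3 RefSeq miRNAs whose seed is shifted by 1 base (miR-291a-3p, miR-291b and miR-105), all 3 were on the array and 0 were tested.

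The genome holds the members in 3 places (RefSeq, GRCr8). miR-17-5p (chr15:98587861-98587883, plus strand) and miR-20a (chr15:98588318-98588340, plus strand) lie within 480 bases of each other. miR-20b-5p (chrX:137343239-137343261, minus strand) lies within 399 bases of a second copy of miR-17-5p (chrX:137343615-137343637, minus strand), from a hairpin that RefSeq lists as Mir106a. The mature sequence of both copies is identical, so the array reads their sum. miR-93 (chr12:22156894-22156916, minus strand) and miR-106b (chr12:22157103-22157123, minus strand) lie within 230 bases of each other and inside the interval of the gene Mcm7, which encodes a subunit of the DNA replication helicase. No other overlapping gene was listed for the members on chromosomes 15 and X.

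All 8 arrays lay on 1 slide and were read in 1 scan, with the adult arrays in 1 slide column and the P10 arrays in another, and an effect of the column cannot be told apart from age. Before any scaling, the 75th percentile over the 278 brightest probes, those detected above background everywhere, was 1284 to 1677 intensity units on adult arrays, against 388, 440, 989 and 1690 on P10 replicates 1 to 4. The P10 arrays formed pairs over the tested miRNAs, replicates 1 and 2 correlating at 0.97 and replicates 3 and 4 also at 0.97, against 0.86 to 0.91 across the pairs. Results are therefore also given against each pair. miR-375 and miR-7a, miRNAs that define islet endocrine cells, were well above background on all 8 arrays. All 4 of the listed islet miRNAs (with miR-7b and miR-204) were called higher in adult, with limma adjusted p under 0.05. Of all 238 tested miRNAs, 65 were called higher. The summed scaled signal of the 4 islet miRNAs was 43.1 to 49.2 on adult arrays and 11.7 to 25.4 on P10 arrays. This sum weighs the brightest probes most. Singly, miR-375 was 1.38-fold higher in adult, miR-7b 2.13-fold, miR-7a 3.61-fold and miR-204 3.77-fold.

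Adult islets held less of all 5 major arms than P10 islets, by 2.24-fold for miR-106b up to 5.47-fold for miR-17-5p. Each difference is given relative to the bulk of measured miRNAs, because every array was divided by its 75th percentile signal before log2 was taken. All 5 were called lower in adult and 0 higher (limma, Benjamini-Hochberg adjusted p under 0.05 over 238 miRNAs), where 20.2% of all tested miRNAs were called lower. Every adult array lay below every P10 array for all 5, which held for 20.2% of all tested miRNAs too. The median log2 difference of the 5 was -2.14, beside -0.01 for all tested miRNAs, of which 65 were called higher and 48 lower. In bulk RNA, fewer cells of a type and less RNA per cell cannot be told apart.

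**Figure D1:**
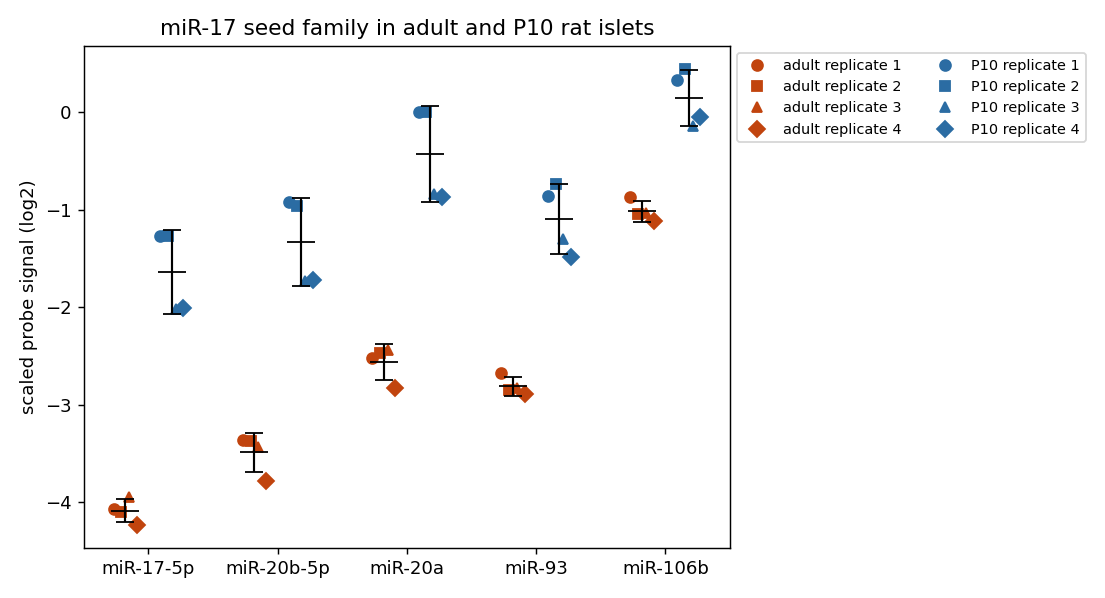
Scaled probe signal (log2, vertical axis) of the 5 major arms on each array, adult in red on the left of each pair and P10 in blue, with replicates 1 to 4 as circle, square, triangle and diamond and the black bars giving mean ± SD (n = 4). All adult points lie below all P10 points for each member, and P10 replicates 1 and 2 lie above P10 replicates 3 and 4. Heights of different members are not comparable, since each has its own probe.

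The miR-17~92 cluster and its X-linked paralogue hold miR-17-5p, miR-20a and miR-20b-5p. miR-17-5p, the namesake of the family, read -4.07, -4.11, -3.95 and -4.23 (scaled log2 signal) on adult replicates 1 to 4, against -1.27, -1.27, -2.02 and -2.0 on P10 replicates 1 to 4. The adult arrays lay close together and the lowest P10 array stood well above the highest adult array, with P10 replicates 1 and 2 higher than replicates 3 and 4. Its mean was -4.09 ± 0.12 in adult and -1.64 ± 0.43 in P10 (SD, n = 4 each). The log2 difference was -2.45 ± 0.21 (SE), a 5.47-fold lower signal in adult with a limma adjusted p of 7.47e-05, and it ranked 9 from the lowest of the 238 differences.

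miR-20a, encoded beside miR-17-5p, read -2.52, -2.47, -2.44 and -2.83 on adult replicates 1 to 4, against 0.0016, 0.00047, -0.83 and -0.87 on P10 replicates 1 to 4. The ages did not overlap, adult replicate 4 was the lowest array, and the P10 arrays again split into a higher and a lower pair. The log2 difference was -2.14 ± 0.24 (SE), or 4.40-fold lower in adult, with a limma adjusted p of 0.000232.

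miR-20b-5p, the X-linked counterpart of miR-20a, read -3.36, -3.37, -3.44 and -3.78 on adult replicates 1 to 4, against -0.92, -0.96, -1.73 and -1.72 on P10 replicates 1 to 4. The arrays kept the same order of groups as for miR-20a, with no overlap of the ages. The log2 difference was -2.16 ± 0.23 (SE), or 4.46-fold lower in adult, with a limma adjusted p of 0.000177.

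The miR-106b~25 cluster holds miR-93 and miR-106b. miR-93 read -2.68, -2.85, -2.83 and -2.89 on adult replicates 1 to 4, against -0.86, -0.74, -1.30 and -1.49 on P10 replicates 1 to 4. The adult arrays were nearly level and all lay below the P10 arrays. The log2 difference was -1.72 ± 0.18 (SE), or 3.29-fold lower in adult, with a limma adjusted p of 0.000168.

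miR-106b showed the smallest difference of the 5. It read -0.87, -1.05, -1.03 and -1.12 on adult replicates 1 to 4, against 0.33, 0.45, -0.14 and -0.05 on P10 replicates 1 to 4. The ages did not overlap, and P10 replicate 3 came closest to the adult arrays. The log2 difference was -1.16 ± 0.16 (SE), or 2.24-fold lower in adult, with a limma adjusted p of 0.000561 and rank 32 of 238.

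**Figure D2:**
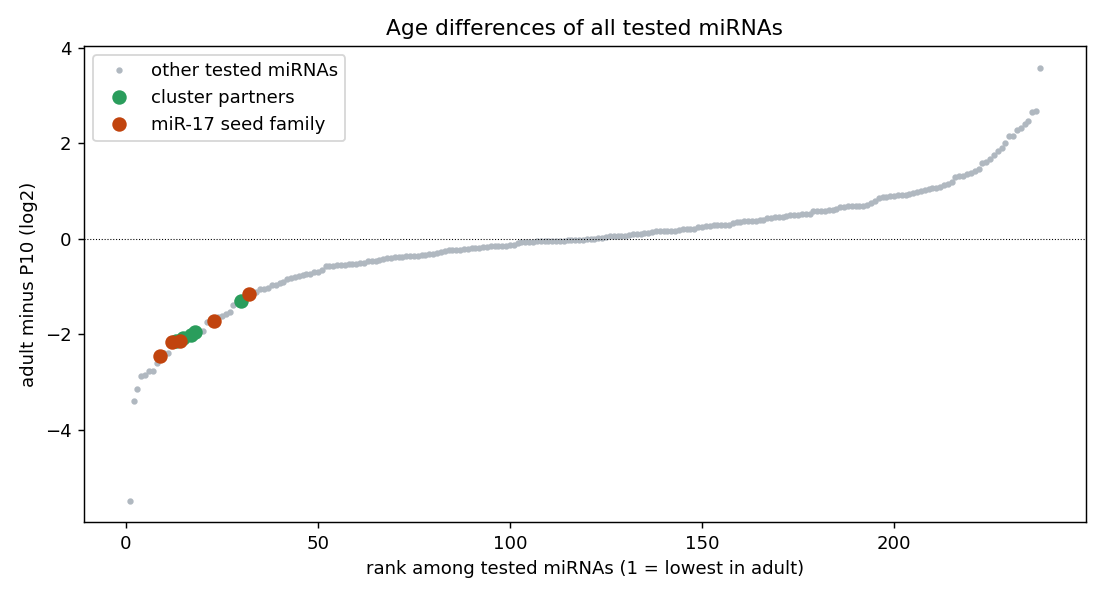
Log2 difference, adult minus P10 (vertical axis), of the 238 tested miRNAs in rank order (horizontal axis, 1 being the lowest in adult). The 5 members (red) stand at ranks 9 to 32 and the 5 tested cluster partners (green) among them, while the other miRNAs (grey) run from -5.49 to 3.59.

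The size of these differences depended on how the arrays were scaled. The signal of the same probes before scaling, in intensity units, was 80.6, 81.4, 109 and 68.3 for miR-17-5p on adult replicates 1 to 4, against 161, 183, 245 and 421 on P10 replicates 1 to 4. That of miR-20a was 236, 254, 310 and 181 on adult replicates 1 to 4, against 389, 440, 555 and 927 on P10 replicates 1 to 4. Both were lower on every adult array than on any P10 array without any scaling. For miR-20b-5p the unscaled signal was 93.4 to 155 on adult arrays and 205 to 514 on P10 arrays, also without overlap. The unscaled signal of miR-93 was 173 to 236 on adult arrays and 214 to 602 on P10 arrays, so the ages overlapped. The unscaled signal of miR-106b was 591 to 822 on adult arrays and 488 to 1634 on P10 arrays, with P10 replicate 1 below every adult array. The ages were thus separate for 3 of 5 members before scaling, which held for 7.14% of all tested miRNAs.

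**Figure D3:**
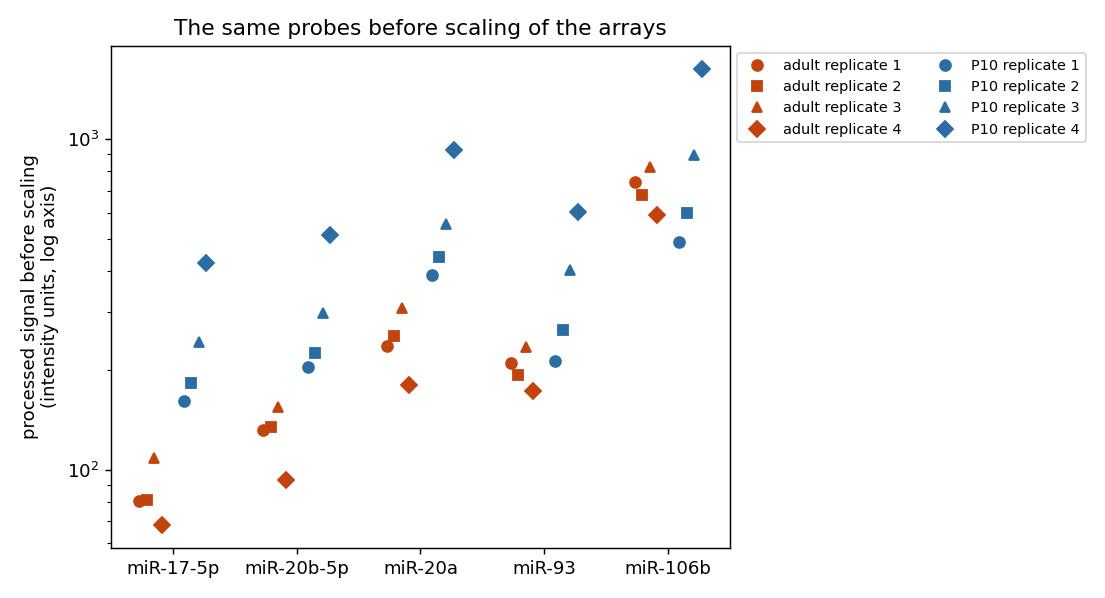
Processed signal before scaling (intensity units, log axis) of the same probes, adult in red on the left and P10 in blue, with marker shapes for replicates 1 to 4. The adult points lie below the P10 points for miR-17-5p, miR-20b-5p and miR-20a, and overlap them for miR-93 and miR-106b.

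Without scaling, limma called 3 of 5 members lower in adult, where 7.14% of all tested miRNAs were called lower: miR-17-5p (-1.49), miR-20a (-1.18) and miR-20b-5p (-1.20). miR-93 (-0.76, limma adjusted p = 0.118) and miR-106b (-0.20, limma adjusted p = 0.675) did not pass there. With the 9 spike-in sets as the scale, 1 of 5 passed, against 3.78% of all tested miRNAs. That member was miR-17-5p at -1.43 (limma adjusted p = 0.0313), while miR-20a read -1.12, miR-20b-5p -1.14, miR-93 -0.70 and miR-106b -0.15. Cyclic loess over all probes called 2 of 5, against 9.24% of all tested miRNAs. These were miR-20a (-2.25) and miR-20b-5p (-1.83), and miR-17-5p (-1.69, limma adjusted p = 0.108), miR-93 (-1.20, 0.057) and miR-106b (-0.88, 0.108) did not pass. The median of all tested miRNAs moved to 0.94 without scaling and 0.99 with spike-in scaling. These scalings apply 1 factor to each array, so by construction a member's difference relative to that median hardly moves (-2.43 with spike-in and -2.44 with percentile scaling for miR-17-5p), and this is no sign of stability.

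**Figure D4:**
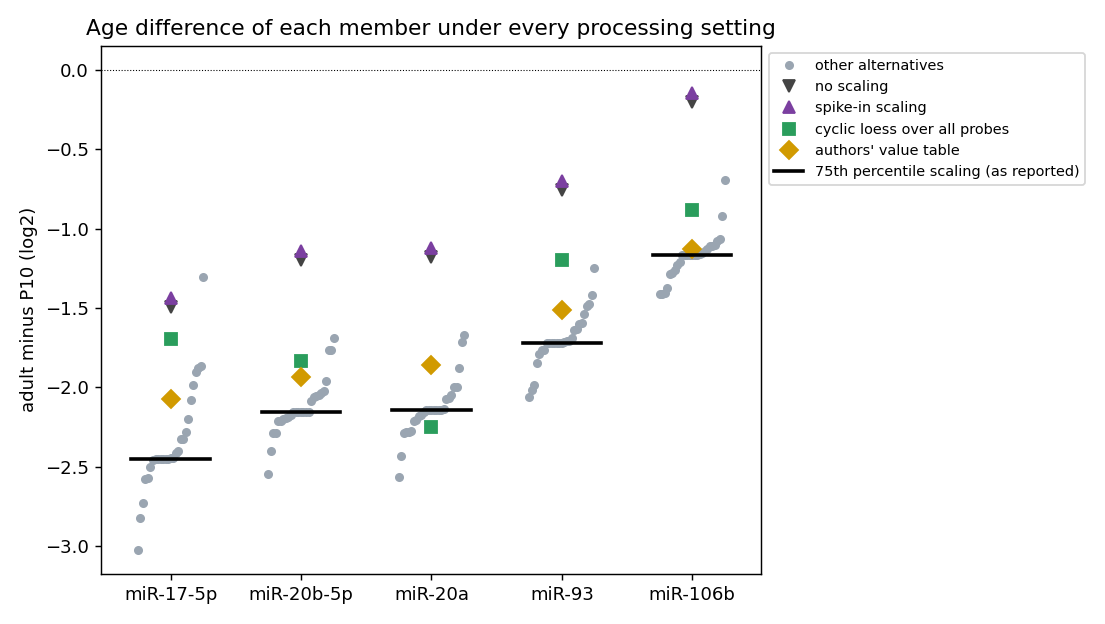
Log2 difference, adult minus P10 (vertical axis), of each member under every way of processing the arrays, with the black bar giving 75th percentile scaling and grey points the other alternatives. All values lie below 0, and those without scaling and with spike-in scaling (triangles) lie nearest to 0 for every member but miR-17-5p, whose second probe, at -1.30, lies nearer.

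The authors' value table, on its own log2 scale, held 6 family rows of 311. Fitted as deposited with limma, 6 of 6 were called lower in adult, where 17.7% of its miRNAs were called lower. The differences were -2.07 for miR-17-5p, -1.93 for miR-20b-5p, -1.86 for miR-20a, -1.51 for miR-93 and -1.13 for miR-106b. The sixth row was miR-20a*, the opposite arm of the miR-20a hairpin, which read 3.34, 3.27, 3.08 and 3.34 on adult replicates 1 to 4, against 4.40, 4.36, 4.17 and 4.11 on P10 replicates 1 to 4. Its ages did not overlap, and its difference was -1.01 with a limma adjusted p of 0.000511.

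In the scanner data none of the 6 opposite arms was well above background on any array, and they were not tested. These were miR-17-1-3p, miR-17-2-3p, miR-20a*, miR-20b-3p, miR-93* and miR-106b*, with 20 of the family's 30 probes. The other 10 probes, 2 for each major arm, were well above background on at least 1 array. The brightest miR-20a* probe read 10.1, 4.06, 10.0 and 6.61 intensity units before scaling on adult replicates 1 to 4, against 13.9, 13.8, 18.6 and 30.9 on P10 replicates 1 to 4. All adult values lay below all P10 values, at a signal that the scanner software did not place well above background. Since 0 hairpins had both arms tested, the age difference of the 2 arms of a hairpin could not be compared, and the part of miR-17-5p that came from each of its copies could not be read from miR-17-1-3p and miR-17-2-3p.

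Each major arm had a second probe, dimmer than the first. The second probe gave log2 differences of -2.28 for miR-20a, -2.21 for miR-20b-5p and -1.41 for miR-106b, all above background on 8 arrays. The second miR-93 probe was well above background on 1 of 4 adult arrays, and lay at the floor on all 4 (the lowest value kept, -5.51 on the log2 scale), so that its difference of -1.48 depends on the floor. The second miR-17-5p probe was well above background on 0 of 4 adult arrays, and the fold between the ages was 2.47 with its adult values at the floor. Set instead against the lowest signal that each adult array had well above background, or the probe's own where that was higher, its signal was at least 3.22-fold lower in adult. After scaling, all 5 second probes were lower on every adult array than on any P10 array. Before scaling, the ages overlapped for the second probes of miR-93 and miR-106b.

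Whether the members differed from each other in their age difference was tested within arrays, where any scaling by a single factor per array drops out. For each of 10 pairs of members the log2 value of the second was subtracted from that of the first on each array, and the result was compared between the ages by an exact two-sided permutation test. With 70 arrangements the smallest p is 0.0286. Of 10 pairs, 9 passed (p = 0.0286 each, 0.0317 after Benjamini-Hochberg adjustment over the 10, exact permutation test). These p-values cover the spread between arrays, not that between probes of 1 miRNA. The first and second probes gave age differences of -1.16 and -1.41 for miR-106b. They gave -2.14 and -2.28 for miR-20a, and -2.16 and -2.21 for miR-20b-5p.

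The gaps of miR-17-5p, miR-20b-5p and miR-20a to miR-106b were the widest. The age difference of miR-17-5p minus that of miR-106b was -1.29 ± 0.10 (SE, log2), that of miR-20b-5p minus miR-106b -0.99 ± 0.12 and that of miR-20a minus miR-106b -0.98 ± 0.14. The miR-17-5p gap was -0.59 with the mean over probes, and it turned to 0.11 with the second brightest probe, whose adult values lay at the floor. The gap of miR-93 to miR-106b, its neighbour in the same cluster, was smaller. miR-93 minus miR-106b was -1.81, -1.80, -1.80 and -1.77 on adult replicates 1 to 4, against -1.19, -1.18, -1.16 and -1.44 on P10 replicates 1 to 4, a difference of -0.55 ± 0.07 (SE). It did not pass with the second brightest probe (-0.07, adjusted exact permutation p = 0.429) or in the authors' value table (-0.38, adjusted exact permutation p = 0.0714). The adult arrays were nearly identical and P10 replicate 4 stood apart from the other P10 arrays, on the adult side. The gaps to miR-93 were -0.73 for miR-17-5p, -0.44 for miR-20b-5p and -0.42 for miR-20a.

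miR-20a and miR-20b-5p, which lie on different chromosomes, were the pair that did not pass. miR-20a minus miR-20b-5p was 0.84, 0.91, 1.00 and 0.95 on adult replicates 1 to 4, against 0.92, 0.96, 0.90 and 0.85 on P10 replicates 1 to 4. The ages overlapped, and the difference was 0.02 ± 0.04 (SE, exact permutation p = 0.714). With normexp background correction this pair passed, at -0.11 (adjusted exact permutation p = 0.0357). miR-17-5p minus miR-20a differed by -0.31 ± 0.06 (SE) and miR-17-5p minus miR-20b-5p by -0.29 ± 0.07, and both turned positive in 4 of 11 other settings. Both passed in that opposite direction with the mean over probes, the second brightest probe and the higher floor. The adjusted exact permutation p was 0.0357, 0.0476 and 0.0357 in that order, for each pair. The gaps of miR-20a and of miR-20b-5p to miR-106b kept their direction in all 11 and passed in 10 of 11, all but cyclic loess over all probes, in which 0 of 10 pairs passed.

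**Figure D5:**
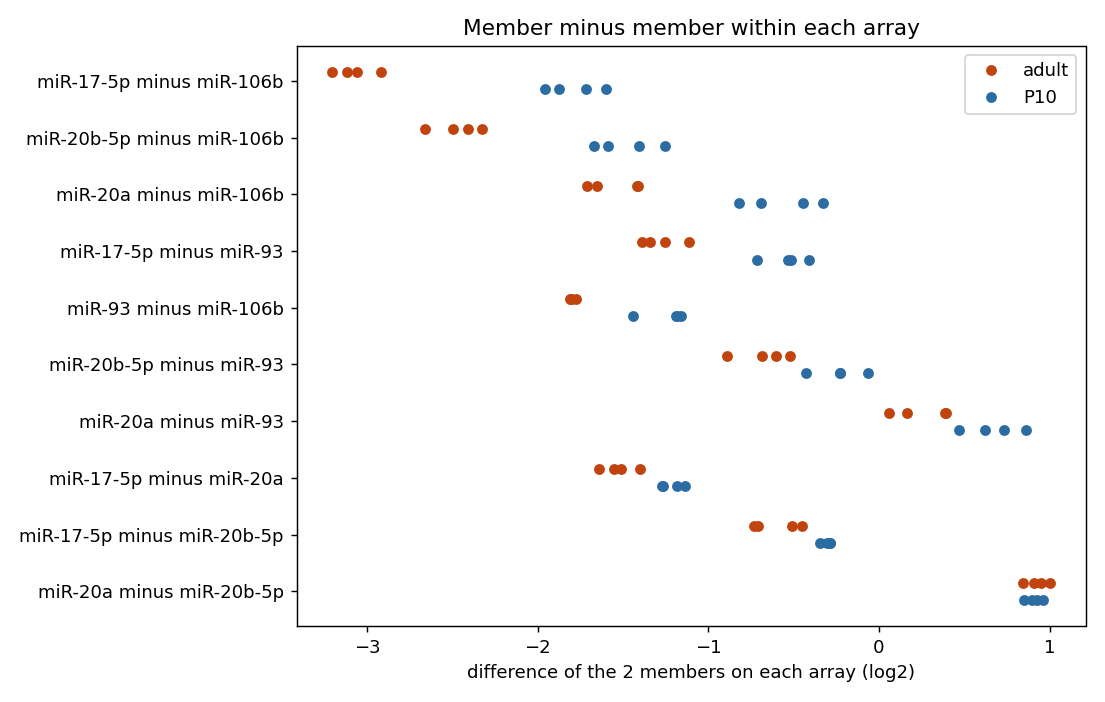
Difference of the 2 members named on the left on each array (log2, horizontal axis), adult points in red above P10 points in blue (n = 4 each). The ages are separate for 9 pairs and overlap for miR-20a minus miR-20b-5p. Only the gap between the ages within a pair is comparable, since each member has its own probe.

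The P10 arrays were themselves unequal. P10 replicates 1 and 2 exceeded replicates 3 and 4 by 0.74 for miR-17-5p, 0.78 for miR-20b-5p, 0.85 for miR-20a, 0.60 for miR-93 and 0.48 for miR-106b (log2, means of 2 arrays each). Against P10 replicates 3 and 4 alone, the adult differences were -2.08 for miR-17-5p, -1.77 for miR-20b-5p, -1.71 for miR-20a, -1.42 for miR-93 and -0.92 for miR-106b. Against P10 replicates 1 and 2 alone they were -2.82, -2.55, -2.56, -2.02 and -1.40 in the same order. All 5 passed in both, where 21.8% of all tested miRNAs were called lower against replicates 3 and 4 and 39.1% against replicates 1 and 2. Arrays within a pair were close, so the SE fell. For miR-17-5p it was 0.10 and 0.09 in that order, against 0.21 with all P10 arrays. Passing there is thus not a stricter check.

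Markers of other cell types also varied across these arrays. Their calls stand beside 65 higher and 48 lower in adult among all 238 tested miRNAs. Of the acinar miRNAs, which mark the exocrine pancreas, 0 of 3 were called (miR-216a 0.61, miR-217 0.51 and miR-216b-5p -0.47, log2 differences). Their summed scaled signal was 0.230 to 0.460 on adult arrays, against 0.961, 0.801, 0.0807 and 0.0660 on P10 replicates 1 to 4. P10 replicates 1 and 2 held more acinar signal than any adult array, and P10 replicates 3 and 4 held less. For the 5 members too, replicates 1 and 2 formed the upper P10 pair, but every adult array lay below both pairs. The islet sum split these pairs the other way. It was 11.7 and 17.9 on P10 replicates 1 and 2, against 25.1 and 25.4 on replicates 3 and 4. The gut miRNAs miR-192, miR-194 and miR-215 were lower in adult for 3 of 3, with a sum of 0.280 to 0.508 on adult arrays, against 7.27, 1.11, 13.5 and 2.37 on P10 replicates 1 to 4, an order that the members did not share. miR-215 was well above background on 0 of 4 adult arrays.

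Of 5 mesenchymal miRNAs 1 was higher in adult (miR-143, log2 difference 0.93). In adult 3 were lower (miR-199a-5p -1.75, miR-214 -1.64 and miR-199a-3p -1.62), and the ages did not overlap for these 3. The sum, to which miR-143 gave the most, was 5.10 to 7.11 on adult arrays and 4.27 to 7.38 on P10 arrays. Of the endothelial miRNAs 0 of 2 were called, with a sum of 2.92 to 3.32 on adult arrays and 2.34 to 4.71 on P10 arrays. Of the leukocyte miRNAs 0 of 4 were called, with a sum of 1.24 to 1.58 on adult arrays and 0.721 to 3.64 on P10 arrays. Both erythroid miRNAs on the array were higher in adult, with a sum of 0.25 to 0.652 on adult arrays and 0.147 to 0.253 on P10 arrays. The ages overlapped for both. miR-144 lay at or near the floor on all P10 arrays and at it on adult replicate 4, so its difference depends on the floor. The part of other cell types in the members' differences was not tested.

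The other products of the 3 clusters, counted together with miR-92b and miR-92b*, which are not products of these clusters, numbered 16 on the array. Of these, 5 were tested, all of them cluster products. All 5 were lower in adult (median log2 difference -2.01), at the same background of 20.2%. miR-19b, which has another seed and is encoded in miR-17~92 and its X-linked paralogue, read -0.53, -0.67, -0.67 and -0.85 on adult replicates 1 to 4, against 2.00, 1.83, 0.94 and 0.86 on P10 replicates 1 to 4. The ages did not overlap, and its difference was -2.08 (limma adjusted p = 0.000543). miR-19a differed by -2.01 and miR-92a by -2.14 (limma adjusted p = 0.00343). miR-25, the third member of the miR-106b~25 cluster, differed by -1.30 (limma adjusted p = 0.00752), between miR-106b and miR-93. miR-18a was at the floor on all 4 adult arrays, so that its difference of -1.96 depends on the floor. Of the 11 that were not tested, miR-363 was well above background on 1 P10 array.

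The miRNAs most alike the family were sought among 233 tested miRNAs outside it, by Pearson's r with the mean log2 value of the 5 members over the 8 arrays, a description over arrays that share slide and age. They were miR-19a (r = 0.998), miR-15b (0.998), miR-181c (0.997), miR-19b (0.995) and miR-181d (0.994). The members correlated with each other at 0.991 to 0.999. After each age's mean had been taken away, the closest were miR-19a (0.982), miR-19b (0.981), miR-92a (0.978), miR-15b (0.974) and miR-30a (0.972). miR-30a followed the P10 split without an age difference (0.07, limma adjusted p = 0.837). It read 0.51, 0.53, 0.52 and 0.43 on adult replicates 1 to 4, against 0.91, 0.84, 0.0018 and -0.04 on P10 replicates 1 to 4, so that adult arrays lay between the P10 pairs.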

How the data were processed

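Total RNA of islets (4 adult and 4 P10 arrays) was labelled with cyanine 3, per the labels. Signals in the deposited scanner files are intensity values that Agilent Feature Extraction 10.7.3.1 had already background-subtracted, per the file headers. The authors' deposited value table holds log2 values for 311 miRNAs, and its making is not given in the sources. Each column ranked its miRNAs as the total gene signal of the same array did (Spearman correlation 1) and had a median of 6.54, which settles its direction. The table is thus no separate measurement, and its equal medians take out differences in level between arrays.

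Features with outlier flags (2.34% to 3.65% per array) were left out of 13540 non-control features, and 0 were saturated. Features of each of 1644 probes were averaged, each array was scaled to its 75th percentile (taken over the 278 probes called above background on every array), the results were raised to a common floor (-5.51) and log2 was taken. The brightest probe stood for each miRNA. A miRNA was tested if 4 or more of 8 arrays had it well above background, with limma 3.58.1 in R 4.3.3 (no block, Benjamini-Hochberg adjustment, threshold 0.05). The limma step was tested on simulated data with independent arrays and the same SD at both ages. Those data lack the wider spread and the pairs of the P10 arrays. Pairs of members were compared by exact permutation tests in scipy 1.17.1. The number of arrays limits the precision.

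The named miRNAs are all family and cluster products, those with the shifted seed, the marker lists and the 5 most alike by each of 2 measures. The members and lists were chosen with earlier results of these data known. All 11 family products were matched to RefSeq names. The array's design uses another genome build than RefSeq's GRCr8, so positions are RefSeq's alone. Alternatives covered the scaling, the floor, the filter, the probe and signal column used, the background correction, flags, variance model, array weights, blocks and arrays left out. The planned comparison of the arms of a hairpin could not be run, because no opposite arm was well above background. The planned normexp correction used median signals, the only raw signal column in the files.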

Additional observations from a re-analysis of the deposited data

Results flagged for a closer look

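In the difference miR-93 minus miR-106b, P10 replicate 4 read -1.44 (log2), far from the other P10 arrays at -1.19, -1.18 and -1.16. Its gap to the nearest of them was 0.901 of the group's range, above the limit that Dixon's test sets for 4 samples. Chance flags about 1 in 20 groups, and 30 groups were checked.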

How the results depend on the processing

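Over 31 alternatives no member turned positive. miR-17-5p ranged from -3.02 to -1.30, miR-20a from -2.56 to -1.12, miR-20b-5p from -2.55 to -1.14, miR-93 from -2.06 to -0.70 and miR-106b from -1.41 to -0.15. limma called 3 members lower without scaling, 1 with spike-in scaling, 2 with cyclic loess over all probes and at least 5 in each other alternative. Among all tested miRNAs, 48 were called lower, against 9 with spike-in scaling, 17 without scaling, 22 with cyclic loess over all probes, 29 with the floor higher by a factor of 4, 91 with array weights and 93 with P10 replicates 1 and 2 alone. Leaving out each array in turn kept all 5 calls, with -2.58 to -2.33 for miR-17-5p and -1.26 to -1.06 for miR-106b.

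With a replicate block all 5 calls held (miR-17-5p -2.45 ± 0.21 SE, limma adjusted p = 0.00137) and 44 miRNAs were called lower. Same-numbered arrays deviated together with correlations of 0.18, -0.09, 0.48 and -0.23, and 2 of 4 correlated best with their own number. So few values cannot settle whether the numbers pair the arrays.

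Of the pair comparisons, 0 passed with cyclic loess over all probes. miR-17-5p minus miR-20a was 0.56 with cyclic loess over all probes, 0.33 with the mean over probes, 0.98 with the second brightest probe and 0.27 with the higher floor. miR-17-5p minus miR-20b-5p was 0.14, 0.31, 0.91 and 0.22 in those settings. Apart from cyclic loess over all probes, both pairs passed there in this opposite direction. With the second brightest probe, miR-17-5p minus miR-93 was 0.17 and miR-17-5p minus miR-106b 0.11, where the miR-17-5p probe lay at the floor on every adult array. With the floor lowered by a factor of 4, an alternative chosen after seeing the data, that probe differed by -3.02 between the ages and 0 of the 9 pairs that had passed changed sign. Leaving out 1 array gives no call for a pair, since 3 against 4 cannot go below 0.0571, and 0 of those 9 changed sign there. miR-20a minus miR-20b-5p, which had not passed, lay close to 0 and changed sign without P10 replicate 4 and without adult replicate 3, among other settings. Signals close to background limit the second probes of miR-17-5p and miR-93 and all opposite arms.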
